A study of Mus musculus with 5 samples.

Results

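Of the 4222 piRNAs that the authors listed as higher or lower in a Mtdh-/- testis library, 1030 were 31 nt or longer and began with T (U in the RNA). These 1030 long, T-starting piRNAs are described here. They were chosen by joining, by piRNA name, the 6 deposited tables that set each of 3 Mtdh-/- libraries against the wild-type group, 1 table for higher and 1 for lower piRNAs per library. The first base and the length were then read from the deposited sequence. Lengths were 31 nt in 827 piRNAs, 32 nt in 199, 33 nt in 3 and 36 nt in 1. The other 3192 listed piRNAs were shorter or began with another base.

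Small RNA was sequenced from testes of C57BL/6 mice, all aged 6 months after birth. The Mtdh-/- group, 3 libraries, came from mice without exon 3 of Mtdh, which encodes metadherin. The wild-type group, 2 libraries, carried no Mtdh deletion according to the labels. The labels do not state whether each library is a separate animal, and no file used here measures Mtdh RNA, so the genotype was not checked.

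piRNAs are small RNAs bound by PIWI proteins, and in the mouse they are most abundant in the male germ line. Most piRNAs of the adult testis are cut from long single-stranded precursors during meiotic pachytene and usually begin with U, and many of the precursors are annotated as long noncoding RNAs. MILI carries the shorter and MIWI the longer of these piRNAs. Pachytene piRNAs are required for male fertility in the mouse, and members of this class can guide cleavage of matching RNA.

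Every piRNA was listed because its fold between 1 Mtdh-/- library and the mean of both wild-type libraries, with 10 added to each value, was 2 or more in the authors' deposited tables. The differences below are therefore descriptions with no test, and all 3 comparisons share the same wild-type libraries. Values are the authors' normalized tag values, whose scaling and read depth no source used here gives, so no counting interval can be attached. Both wild-type values were given for each of the 1030 piRNAs. Mtdh-/- 1, 2 and 3 had values for 448, 655 and 283 of them, because a piRNA not listed for a library usually had no value there.

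The sequences below are the 8 piRNAs listed lower for all 3 Mtdh-/- libraries that matched 1 annotated noncoding transcript position, followed by 6 piRNAs from the same or other precursors that were listed higher. They are shown because most of the lower set shared a string of 4 bases near the 5′ end. Capitals mark that string, ATGG.
mmu_piR_009309: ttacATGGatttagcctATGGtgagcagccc
mmu_piR_016655: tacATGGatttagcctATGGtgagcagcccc
mmu_piR_015491: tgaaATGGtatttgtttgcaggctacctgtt
mmu_piR_034943: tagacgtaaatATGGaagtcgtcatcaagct
mmu_piR_037864: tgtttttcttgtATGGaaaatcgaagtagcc
mmu_piR_004195: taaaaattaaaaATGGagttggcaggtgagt
mmu_piR_002328: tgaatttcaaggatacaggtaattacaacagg
mmu_piR_012491: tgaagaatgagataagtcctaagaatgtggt
mmu_piR_019688: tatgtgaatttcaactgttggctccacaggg
mmu_piR_018043: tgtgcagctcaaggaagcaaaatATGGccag
mmu_piR_032559: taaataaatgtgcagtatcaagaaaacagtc
mmu_piR_028085: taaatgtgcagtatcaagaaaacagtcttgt
mmu_piR_020141: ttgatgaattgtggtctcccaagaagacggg
mmu_piR_010655: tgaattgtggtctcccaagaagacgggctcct

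The first 2 sequences overlap, since mmu_piR_009309 lies at chr6:83585906-83585936 and mmu_piR_016655 at chr6:83585907-83585937 on the plus strand, both in exons of the noncoding gene Gm21284 (GRCm38 for all positions). mmu_piR_015491 lies antisense to the processed pseudogene Gm48009 at chr13:49891707-49891737, plus strand, and mmu_piR_034943 antisense to the processed pseudogene Gm7787 at chr9:67748098-67748128, plus strand. mmu_piR_037864 lies in Gm14244 at chr2:127692051-127692081 on the plus strand, close to mmu_piR_018043 of the same gene at chr2:127692089-127692119. mmu_piR_004195 and mmu_piR_002328 lie in the lincRNA gene Gm21269 on the plus strand, at chr7:73818302-73818332 and chr7:73837247-73837278, and mmu_piR_019688 lies in the same gene at chr7:73824992-73825022. mmu_piR_012491 lies in the lincRNA gene 1700042G15Rik at chr4:57361338-57361368 on the minus strand. The last 4 lie in exons of the lincRNA gene 1700029M20Rik on the plus strand, as 2 overlapping pairs: mmu_piR_032559 at chr4:135628990-135629020 with mmu_piR_028085 at chr4:135628994-135629024, and mmu_piR_020141 at chr4:135628893-135628923 with mmu_piR_010655 at chr4:135628897-135628928.

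Mtdh-/- 2 had the most listed piRNAs and Mtdh-/- 3 the fewest. For Mtdh-/- 1, 217 of the 1030 were listed higher (22.5% of all listed piRNAs were) and 223 lower (18.2%). For Mtdh-/- 2, 321 were listed higher (31.1%) and 324 lower (31.1%), and for Mtdh-/- 3, 111 higher (8.55%) and 160 lower (15.7%). Since the listing chose the piRNAs, nothing is read from these shares. Most piRNAs, 789, stood in 1 table (79.6% of the other listed piRNAs did), 156 in 2 (14.9%) and 85 in 3 (5.42%). They were listed only higher in 549 cases (54.7% of the other listed piRNAs were) and only lower in 440 (42.2%). In 41 they were higher for 1 library but lower for another (3.13%).

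The listed folds were mostly small. In the authors' deposited tables the median fold on the higher side was 2.63 for Mtdh-/- 1, 2.63 for Mtdh-/- 2 and 2.16 for Mtdh-/- 3. On the lower side the median sizes were 2.67, 2.50 and 2.63. Past 4-fold stood 48, 69 and 0 piRNAs listed higher for Mtdh-/- 1, 2 and 3, and 41, 53 and 34 listed lower. Mtdh-/- 3 thus had no piRNA of this kind more than 3.40-fold higher. The piRNAs listed higher for Mtdh-/- 1 had a median value of 58.9 in that library, against a median wild-type mean of 11.5. Those listed higher for Mtdh-/- 2 had 60.8 in it, against 10.9, so both sets were scarce in the wild type. Those listed lower had medians of 14.9, 12.6 and 11.4 in Mtdh-/- 1, 2 and 3, against median wild-type means of 64.9, 50 and 59.9.

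The wild-type libraries differed from each other on the scale of the listing itself. Of the 1030 piRNAs, 231 were 2-fold or more higher in wild type 2 than in wild type 1 (25% of all listed piRNAs were) and 177 were 2-fold or more lower (13.1%), with a median log2 ratio of 0.08. The direction of the listing moved with this difference in a way that depended on the library. Of the 160 piRNAs listed lower for Mtdh-/- 3, 148 were 2-fold or more higher in wild type 2 than in wild type 1, and 0 were 2-fold or more lower. Of the 111 listed higher for Mtdh-/- 3, 54 were 2-fold or more lower in wild type 2 than in wild type 1, and 0 were higher. Of the 223 listed lower for Mtdh-/- 1, 109 were 2-fold or more higher in wild type 2, 77 were 2-fold or more lower and 37 were within 2-fold between the wild types. Of the 324 listed lower for Mtdh-/- 2, these counts were 129, 60 and 135. Those listed higher for Mtdh-/- 1 and 2 were mostly within 2-fold between the wild types, in 174 of 217 and 270 of 321. The wild-type mean is part of the listing fold, so these counts describe the listing and are not a separate observation.

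**Figure D1:**
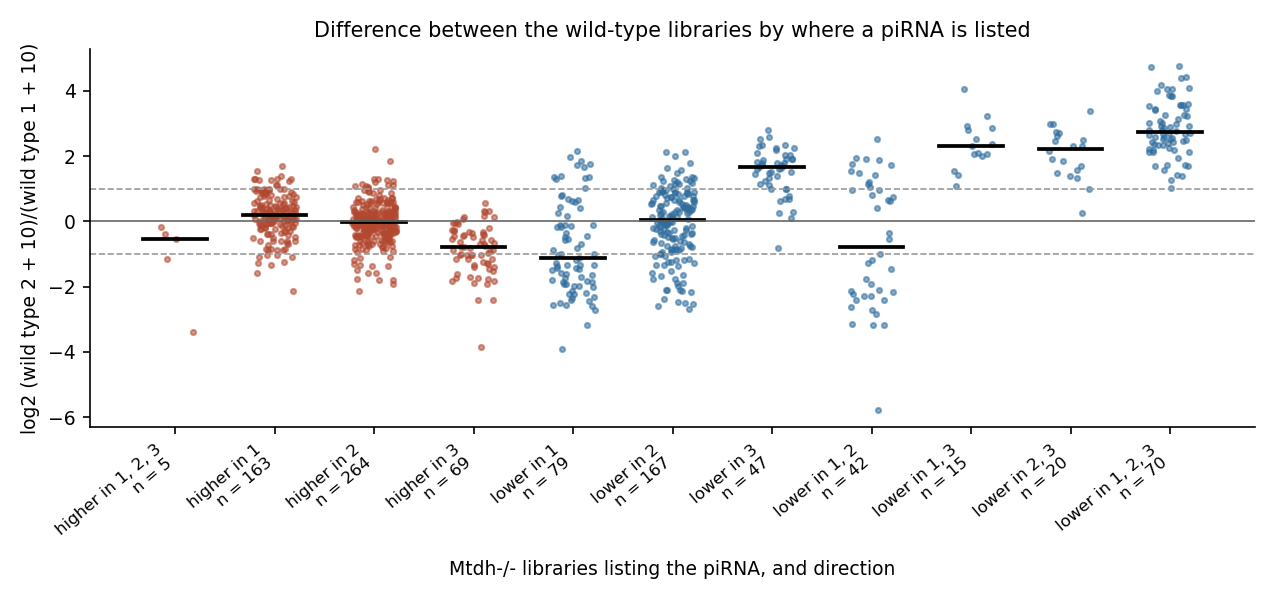
Log2 ratio of wild type 2 over wild type 1, with 10 added to each value, for each piRNA, in columns by the Mtdh-/- libraries (1, 2, 3) for which it was listed and the direction. Points are piRNAs, black lines are medians, dashed lines are 2-fold; all 70 piRNAs listed lower for all 3 libraries lie above the upper dashed line.

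The lower calls for Mtdh-/- 3 rested on wild type 2. With wild type 2 alone as the base 159 of the 160 were still 2-fold or more lower, and with wild type 1 alone 5 were. Of the 111 listed higher for Mtdh-/- 3, 105 and 26 were still 2-fold or more higher against wild type 2 alone and wild type 1 alone. The higher calls for the other libraries held for most piRNAs with either base: 171 and 194 of 217 for Mtdh-/- 1, and 279 and 266 of 321 for Mtdh-/- 2, with wild type 2 alone and wild type 1 alone. The lower calls held for fewer: 135 and 107 of 223 for Mtdh-/- 1, and 239 and 159 of 324 for Mtdh-/- 2.

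**Figure D2:**
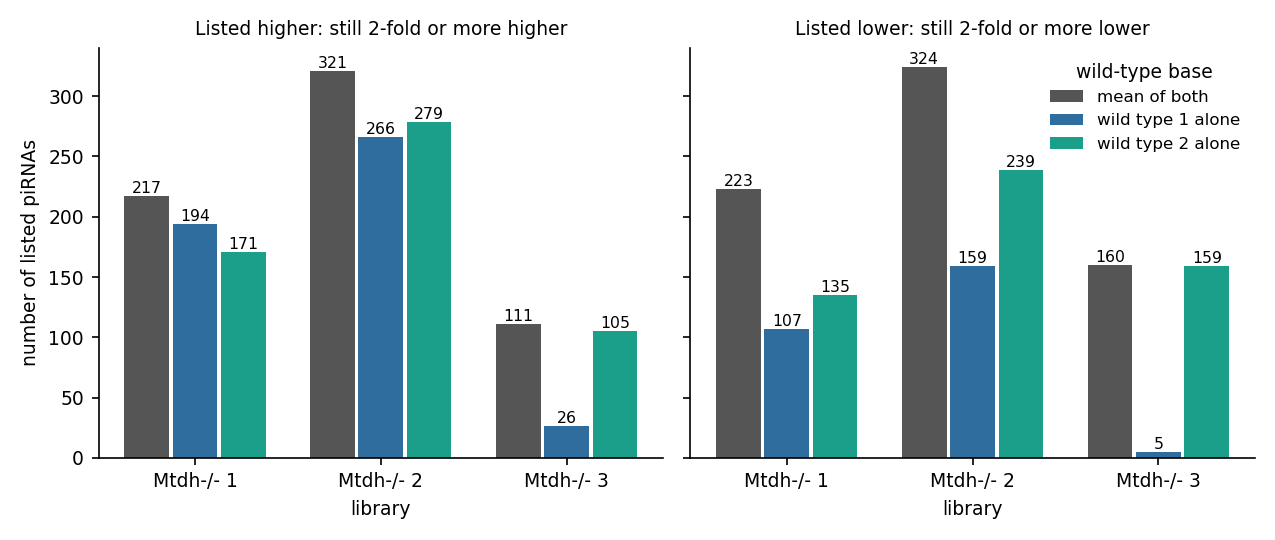
Number of piRNAs listed higher (left) or lower (right) for each Mtdh-/- library that were 2-fold or more in the same direction with the mean of both wild-type libraries, wild type 1 alone or wild type 2 alone as the base, 10 added to each value. Bars give counts; for Mtdh-/- 3 the lower count is 160 with the mean, 5 with wild type 1 and 159 with wild type 2.

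In all 3 tables on the lower side stood 70 piRNAs (5% of all listed piRNAs did). Their values in Mtdh-/- 1 ran from 0 to 394.2 with a median of 14.2, in Mtdh-/- 2 from 0 to 249.4 with a median of 12.6, and in Mtdh-/- 3 from 0 to 413.5 with a median of 11.5. In wild type 1 they ran from 0 to 387.8 with a median of 11.2, and in wild type 2 from 19.5 to 6217 with a median of 168. Wild type 1 was thus at the level of the 3 Mtdh-/- libraries, and wild type 2 stood apart. All 70 were 2-fold or more higher in wild type 2 than in wild type 1, with a median log2 ratio of 2.75 (lowest 1.02, highest 4.75). The same was seen in 139 of the 141 other listed piRNAs that were lower for all 3, with a median log2 ratio of 2.63. The excess in wild type 2 was thus not particular to the long, T-starting piRNAs.

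With wild type 1 alone as the base, 0 of the 70 were 2-fold lower in all 3 Mtdh-/- libraries and 2 were in any. In 12 of them every Mtdh-/- library was below wild type 1, and in 19 every one was at or above it. With wild type 2 alone as the base, all 70 were 2-fold or more lower in all 3. Nothing here says whether the level of wild type 2 or that of wild type 1 is the usual one for this tissue; the part of that library in the result was not tested.

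**Figure D3:**
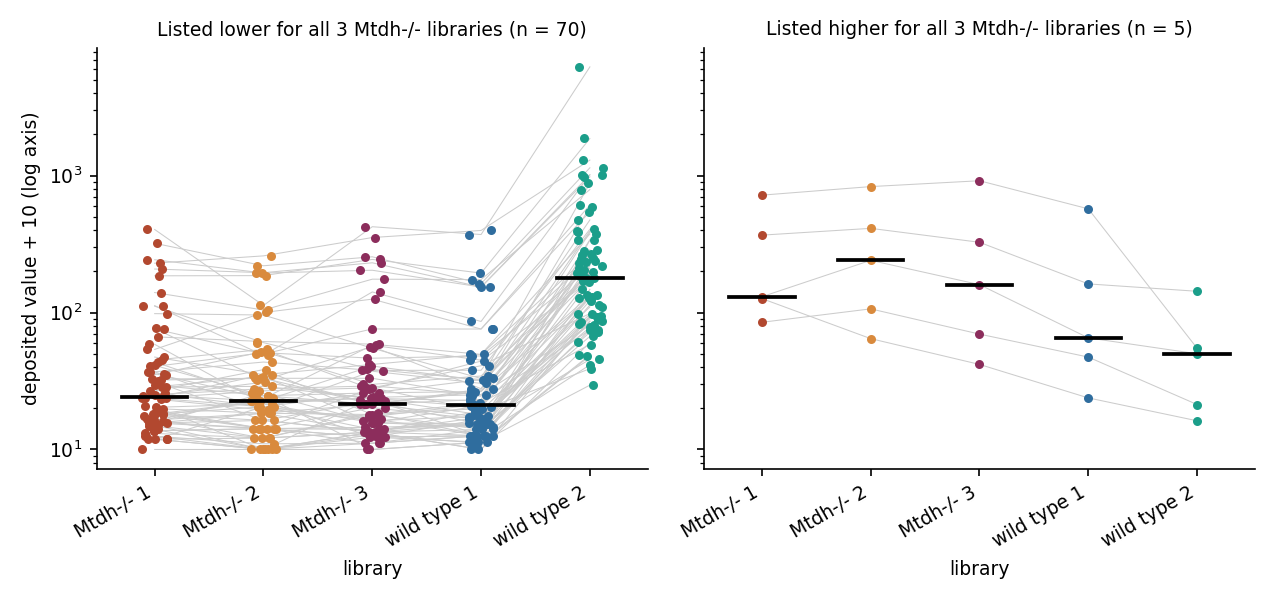
Deposited value plus 10 (log axis) in each library for the 70 piRNAs listed lower (left) and the 5 listed higher (right) for all 3 Mtdh-/- libraries. Points are piRNAs, grey lines join 1 piRNA across libraries and black bars are medians; on the left only wild type 2 stands apart, with a median of 168 before the 10 is added.

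The most abundant of the 70 was mmu_piR_009309, the Gm21284 piRNA shown first above, with values of 394.2, 102.7 and 413.5 in Mtdh-/- 1, 2 and 3, against 361.4 in wild type 1 and 6217 in wild type 2. Wild type 1 lay inside the range of the Mtdh-/- libraries. Its folds in the authors' deposited tables, where a negative fold is minus the inverse ratio, were -8.16, -29.3 and -7.79 for Mtdh-/- 1, 2 and 3. Its neighbour mmu_piR_016655, which starts 1 base further along, had 19.6, 14.7 and 15.9 in Mtdh-/- 1, 2 and 3, against 16.5 in wild type 1 and 123.5 in wild type 2. In both piRNAs of this transcript wild type 2 was highest and Mtdh-/- 2 lowest.

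By the size of the smallest of the 3 folds, the next were mmu_piR_022403, mmu_piR_034173, mmu_piR_029156, mmu_piR_015491, mmu_piR_021407, mmu_piR_036731 and mmu_piR_004373. mmu_piR_022403 had 31.1, 14.7 and 11.4 in Mtdh-/- 1, 2 and 3, against 17.6 in wild type 1 and 579.2 in wild type 2. mmu_piR_034173 had 8.1, 10.5 and 4.0 in Mtdh-/- 1, 2 and 3, against 5.7 in wild type 1 and 271.4 in wild type 2. mmu_piR_021407 had 14.6, 21 and 13.1 in Mtdh-/- 1, 2 and 3, against 2.6 in wild type 1 and 328.6 in wild type 2. In the last of these, every Mtdh-/- library exceeded wild type 1. mmu_piR_015491, antisense to Gm48009, had 5.9, 4.2 and 4.0 in Mtdh-/- 1, 2 and 3, against 5.3 in wild type 1 and 156.4 in wild type 2. mmu_piR_004373 had 13.7, 10.5 and 15.9 in Mtdh-/- 1, 2 and 3, against 22.4 in wild type 1 and 227.9 in wild type 2. Of these 8, only mmu_piR_004373 was below both wild types in all 3 Mtdh-/- libraries.

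In all 3 tables on the higher side stood 5 piRNAs (0.332% of all listed piRNAs did), and in each of them all 3 Mtdh-/- libraries exceeded both wild-type libraries. mmu_piR_038202 had 357.6, 402.1 and 316.0 in Mtdh-/- 1, 2 and 3, against 151.9 and 133.0 in wild type 1 and 2. mmu_piR_008296 had 120.5, 230.6 and 149.9 in Mtdh-/- 1, 2 and 3, against 55.3 and 40 in wild type 1 and 2. In these cases the wild-type libraries were close to each other. mmu_piR_024166 had 116.5, 54.5 and 31.8 in Mtdh-/- 1, 2 and 3, against 13.8 and 6.2 in wild type 1 and 2. mmu_piR_027776 had 74.9, 96.4 and 59.6 in Mtdh-/- 1, 2 and 3, against 37.3 and 11.3 in wild type 1 and 2. mmu_piR_020844 had 710.1, 821.6 and 907.6 in Mtdh-/- 1, 2 and 3, against 562.2 in wild type 1 and 44.9 in wild type 2, so that its fold came mainly from wild type 2. With wild type 1 alone as the base, 1 of the 5 was 2-fold or more higher in all 3 Mtdh-/- libraries. None of the 5 matched an annotated transcript.

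Values in all 5 libraries were given for 94 of the 1030 piRNAs. Every Mtdh-/- library was above both wild-type libraries in 10 of these (15.1% over all listed piRNAs with 5 values) and below both in 16 (17.7%). Of the 16, 12 were among the 70 listed lower for all 3. The 4 others, chosen here after their values were seen, included the pair of relatively abundant piRNAs mmu_piR_009188 and mmu_piR_005912. mmu_piR_009188 had 245.6, 129.9 and 161.3 in Mtdh-/- 1, 2 and 3, against 399.6 and 482.6 in wild type 1 and 2. mmu_piR_005912, from the lincRNA gene Gm49794, had 382.1, 360.5 and 440.6 in Mtdh-/- 1, 2 and 3, against 667.7 and 812.3 in wild type 1 and 2. In both, the wild-type libraries were close to each other, while in all of the 70 they differed by 2-fold or more.

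The 41 piRNAs listed in opposite directions for different Mtdh-/- libraries fell into 3 kinds by Mtdh-/- 3. In the 15 with Mtdh-/- 3 listed higher, wild type 2 was below wild type 1 every time, and 2-fold or more below it in 13. In the 8 with Mtdh-/- 3 listed lower, wild type 2 was 2-fold or more above wild type 1 every time. In the 18 not listed for Mtdh-/- 3, the wild types were within 2-fold of each other in 12, and wild type 2 was 2-fold or more above wild type 1 in 3 and below it in 3. Among the 8, mmu_piR_027903, from the lincRNA gene 1700008K24Rik, had 238.3, 36.3 and 36.2 in Mtdh-/- 1, 2 and 3, against 17.1 in wild type 1 and 176.0 in wild type 2. Mtdh-/- 1 lay nearest to wild type 2 there, and Mtdh-/- 2 and 3 nearest to wild type 1. mmu_piR_032661, among the 15, had 57.1, 108.1 and 622.8 in Mtdh-/- 1, 2 and 3, against 509.6 in wild type 1 and 58.1 in wild type 2. In this piRNA Mtdh-/- 1 and 2 lay nearest to wild type 2, and Mtdh-/- 3 nearest to wild type 1. In mmu_piR_018659, among the 18, Mtdh-/- 1 and 2 stood on opposite sides of both wild types, with 3102 and 314.4 in Mtdh-/- 1 and 2, against 639.9 and 665.1 in wild type 1 and 2. These examples were chosen after their values were seen.

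The largest folds on the higher side came from Mtdh-/- 1 and 2. mmu_piR_032559, one of the overlapping 1700029M20Rik piRNAs printed above, had 2431 in Mtdh-/- 2, against 43.9 and 44.6 in wild type 1 and 2, a fold of 45.0 in the authors' deposited table. mmu_piR_028085, which begins 4 bases further along, had 38.8 in Mtdh-/- 2, against 2.6 and 1.0 in wild type 1 and 2. mmu_piR_019896 had 6384 in Mtdh-/- 1 and 813.2 in Mtdh-/- 2, against 271.2 and 257.7 in wild type 1 and 2. It was higher in both Mtdh-/- libraries with a value, by 23.3-fold and 3.00-fold in the authors' deposited tables. mmu_piR_033150 had 545.4 in Mtdh-/- 1, against 11.2 and 14 in wild type 1 and 2, and mmu_piR_026981 had 322.8 in Mtdh-/- 2, against 9.2 and 0.9. On the lower side mmu_piR_017744 had 54.6 and 37.7 in Mtdh-/- 1 and 2, against 2177 in wild type 1 and 29.7 in wild type 2. Here wild type 1 stood alone, and wild type 2 was below both Mtdh-/- libraries.

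For Mtdh-/- 3 the largest higher folds in the authors' deposited table were 3.40-fold for mmu_piR_027330 and 3.34-fold for mmu_piR_014746. mmu_piR_027330 had 118.4 in Mtdh-/- 2 and 160.0 in Mtdh-/- 3, against 62.5 in wild type 1 and 17.5 in wild type 2. mmu_piR_014746 had 77.2 in Mtdh-/- 3, against 21.1 and 11.1 in wild type 1 and 2. Of the piRNAs most abundant in the wild type, mmu_piR_026700 had 1319 in Mtdh-/- 2, against 3541 and 7267 in wild type 1 and 2. mmu_piR_030002 had 1828 in Mtdh-/- 2, against 5830 in wild type 1 and 1706 in wild type 2. mmu_piR_014617, from the 3′ UTR of Nemp1, the gene of a nuclear envelope protein, had 776.5 in Mtdh-/- 1, against 4140 and 1373 in wild type 1 and 2. mmu_piR_026700 and mmu_piR_014617 lay below both wild-type libraries in the single Mtdh-/- library with a value, and mmu_piR_030002 lay between them.

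The letters of the 70 piRNAs listed lower for all 3 Mtdh-/- libraries differed from those of the other piRNAs. The string ATGG stood in 51 of the 70 (72.9%), against 168 of the other 960 (17.5%). Among all 256 strings of 4 bases it had the largest difference in share between these sets, followed by TGGA, with 58.6% against 17.9%, and GGAT, with 41.4% against 11.04%, which overlap it. The string was picked after the sequences were seen. In the listed piRNAs that were shorter or began with another base, ATGG stood in 67.4% of the 141 listed lower for all 3 and in 19.3% of the other 3051. There it ranked 2 among the 256, after TGGA.

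The position of the string differed too. Counted from 1 at the 5′ end, the first ATGG started at bases 4 to 9 in 37 of the 51 (72.5%), against 51 of the 168 others (30.4%). The median start was base 7, against base 15. Among the 168 others, starts at bases 4 to 9 were common where wild type 2 was 2-fold or more above wild type 1. They made up 55.4% there (median start base 8), against 14.6% in the rest (median base 21). In listed piRNAs that were shorter or began with another base, the share was 49.5% (median base 9) for those listed lower for all 3 Mtdh-/- libraries. It was 27.5% (median base 15) for the others of that kind. Of the 8 lower piRNAs printed above, ATGG starts at base 5 in mmu_piR_009309 and mmu_piR_015491 and at base 4 in mmu_piR_016655. It starts at base 12 in mmu_piR_034943 and at base 13 in mmu_piR_037864 and mmu_piR_004195. mmu_piR_002328 and mmu_piR_012491 lack it.

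Presence of the string moved with the ratio between the wild-type libraries. ATGG stood in 62.9% of the 105 piRNAs whose log2 ratio of wild type 2 over wild type 1 was above 2, and in 40% of the 125 with a ratio between 1 and 2. It stood in 15.8% of the 316 with a ratio between 0 and 1, in 11.7% of the 307 between -1 and 0, in 11.8% of the 119 between -2 and -1, and in 5.17% of the 58 at or under -2. Outside the 70, it stood in 40.4% of the 161 piRNAs that were 2-fold or more higher in wild type 2 than in wild type 1, and in 12.9% of the remaining 799. By table, with the 70 included, ATGG stood in 43.5%, 38.6% and 53.8% of the piRNAs listed lower for Mtdh-/- 1, 2 and 3. It stood in 9.22%, 9.35% and 9.91% of those listed higher. In the listed piRNAs that were shorter or began with another base, these shares were 45.0%, 36.9% and 46.1% lower, and 10.3%, 10.8% and 10.4% higher. Whether the string or the way the libraries were made has a part in the level of these piRNAs in wild type 2 was not tested.

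**Figure D4:**
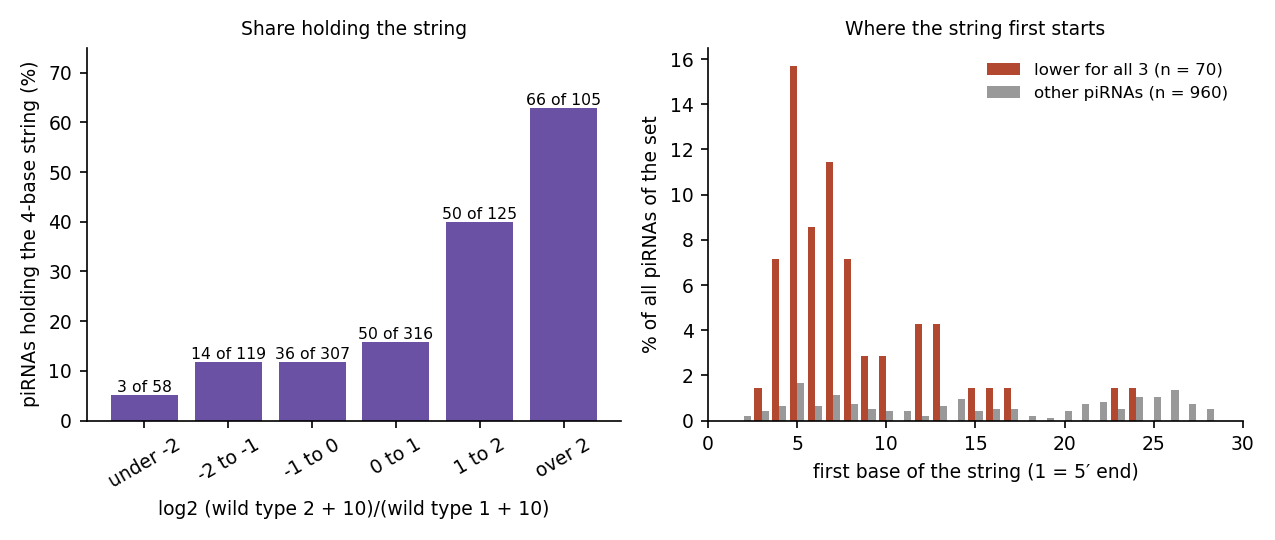
Left, percent of piRNAs that hold the string ATGG, in bins of the log2 ratio of wild type 2 over wild type 1 with 10 added to each value (counts above the bars). Right, base at which the string first starts, as percent of all 70 piRNAs listed lower for all 3 Mtdh-/- libraries and of the other 960; the left bars climb to 62.9% in the highest bin.

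The shorter string TGG, which is contained in ATGG and was likewise picked after the sequences were seen, also stood more often in piRNAs listed lower for 1 library alone than in those listed higher for it alone. It stood in 53.2% of the 79 listed lower only for Mtdh-/- 1, against 37.4% of the 163 listed higher only for it. For Mtdh-/- 2 it stood in 70.1% of the 167, against 29.2% of the 264, and for Mtdh-/- 3 in 70.2% of the 47, against 49.3% of the 69. The wild types were within 2-fold of each other in 113 of the 167 and 235 of the 264 for Mtdh-/- 2. The part of library preparation in these shares was not tested.

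Between all 1030 and the other 3192 listed piRNAs, the share with ATGG hardly differed, with 21.3% against 21.4%. A at base 10 stood in 31.2% of the 1030, against 33.1% of the other 3192. Only an excess of it over base composition would point to the ping-pong cycle of paired cleavage, and such an excess was not tested. G at base 2 stood in 40.3%, against 34.7%, and T at the last base in 30.1%, against 21.3%. The mean GC content was 41.9%, against 43.5%. At the edge of the length rule, 4.12% of the 1358 T-starting piRNAs of 30 nt were listed lower for all 3 Mtdh-/- libraries, compared with 6.77% of the 827 of 31 nt and 7.04% of the 199 of 32 nt.

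The few piRNAs longer than 32 nt were all listed only higher, as were 53.3% of all 1030, so nothing is read from this. The 1 of 36 nt, mmu_piR_038836, had 333.6 in Mtdh-/- 1, against 172.5 and 90.4 in wild type 1 and 2. The 3 of 33 nt were mmu_piR_038668, mmu_piR_039381 and mmu_piR_039931. mmu_piR_039931 had 300.8 and 311.8 in Mtdh-/- 2 and 3, against 206.7 and 72.9 in wild type 1 and 2.

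piRNAs that shared much of their sequence were mostly listed in the same direction for a library. Groups of piRNAs that shared at least 20 bases numbered 56 and held 119 of the 1030. In 50 groups 2 or more piRNAs were listed for the same library, and in 48 of these they were listed in 1 direction. The groups were formed from the letters, not from genome positions, and in 3 of them 2 piRNAs of the same length and start differ in their last bases. How tags that fit several such piRNAs were counted is not stated, so their values are not independent. The largest group held 4 staggered piRNAs listed higher for Mtdh-/- 1: mmu_piR_006209 had 257.3 there, against 17.6 and 7.0 in wild type 1 and 2, mmu_piR_034403 had 264.7, against 26.1 and 11.7, mmu_piR_032002 had 124.2, against 18.4 and 3.4, and mmu_piR_026824 had 72.8, against 6.4 and 2.3. A group of 3 on the lower side showed that neighbouring starts can differ widely in level. mmu_piR_017744 had 2177 in wild type 1, against 300.6 and 269.7 there for mmu_piR_012741 and mmu_piR_017133, which start 4 and 3 bases before it. In wild type 2 the same 3 piRNAs had 29.7, 71.9 and 53.0.

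The first 20 bases were shared by 4 pairs, 3 of them with both piRNAs of 31 nt and so with different bases after the shared stretch. Both piRNAs of each pair were listed in the same direction for Mtdh-/- 2. The pair mmu_piR_008438 and mmu_piR_017057 had 93.4 and 101.7 in Mtdh-/- 2, against 13.6 and 13.6 in wild type 1 and 39.9 and 44.4 in wild type 2. The pair mmu_piR_019364 and mmu_piR_035886 had 60.8 and 54.8 in Mtdh-/- 2, against 1.5 and 8.0 in wild type 1 and 44.0 and 33.7 in wild type 2. The pair mmu_piR_018519 and mmu_piR_022291 had 92.0 and 21.7 in Mtdh-/- 2, against 30.3 and 2.4 in wild type 1 and 5.7 and 3.7 in wild type 2. The pair mmu_piR_011611 and mmu_piR_022933 was lower, with 78.2 and 17.5 in Mtdh-/- 2, against 193.3 and 49.8 in wild type 1 and 247.5 and 52.9 in wild type 2. In this lower pair both wild-type libraries were above Mtdh-/- 2.

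Exact matches of the whole sequence to GENCODE transcripts were found for 119 of the 1030 piRNAs (11.6%), against 637 of all 4222 listed (15.1%). Introns and intergenic precursors were not searched, so the absence of a match says nothing about the origin of the rest. Of the 119, 110 matched 1 position within annotated transcripts, and 105 lay in 1 gene in 1 orientation. Sense matches to lincRNA genes were the largest class, with 58, followed by 21 sense matches to protein-coding genes, of which 19 lay in a 3′ UTR and 2 in coding sequence. A further 7 lay antisense to processed pseudogenes. Of the 70 listed lower for all 3 Mtdh-/- libraries, 9 had a match.

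These 105 piRNAs fell on 43 genes, and 15 genes held 3 or more. In 10 of the 15, piRNAs listed only higher and piRNAs listed only lower came from the same gene. Gm21269 held 10, with 7 listed only higher and 3 only lower. Of these, mmu_piR_019688 had 4879 in Mtdh-/- 1, against 568.2 and 844.1 in wild type 1 and 2. mmu_piR_002328 of the same gene had 25.2, 41.9 and 19.9 in Mtdh-/- 1, 2 and 3, against 24.4 in wild type 1 and 187.3 in wild type 2. mmu_piR_004195 had 10.3, 11.5 and 14 in Mtdh-/- 1, 2 and 3, against 15.1 in wild type 1 and 70.9 in wild type 2. mmu_piR_019688 had no value in Mtdh-/- 2 and 3, so it gives no full order of the libraries. In mmu_piR_002328 and mmu_piR_004195 wild type 2 was highest, and the order of the remaining libraries differed.

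Gm10619, on the opposite strand of chromosome 7 next to Gm21269, held 7 piRNAs, with 5 listed only higher and 2 in both directions. Of those listed in both directions, mmu_piR_038119 had 208.7 in Mtdh-/- 1 and 14.7 in Mtdh-/- 2, against 79.0 and 103.5 in wild type 1 and 2. Nemp1 on chromosome 10 held 7, with 5 only higher and 2 only lower, and Gm49794 on chromosome 17 held 6, with 3 only higher and 3 only lower. All 4 of 1700029M20Rik and all 3 each of 1700001L05Rik and Gm21388 were listed only higher. The 4 of 1700029M20Rik form 2 overlapping pairs, so their values are not independent. The 3 of the 3′ UTR of Tbl2 were listed only lower. Among all the long, T-starting piRNAs 53.3% were listed only higher and 42.7% only lower. Nothing is therefore read from the directions within single genes.

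**Figure D5:**
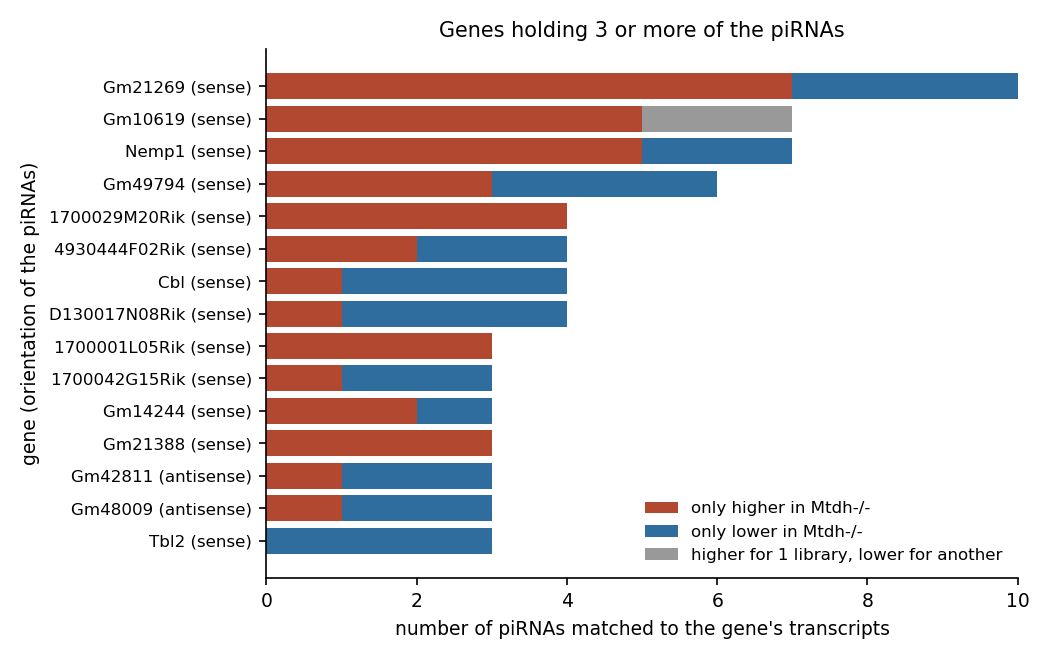
Number of the long T-starting piRNAs matched to the transcripts of each gene that held 3 or more, split by whether they were listed only higher, only lower or in both directions in Mtdh-/- libraries. Bars are counts; Gm21269 holds 10, of which 7 are listed only higher and 3 only lower.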

How the data were processed

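Frozen testes gave RNA by a mirVana kit, and an Illumina TruSeq RNA kit gave the libraries, per the labels' protocols. Novoalign 2.07.11 stands in the submitters' processing notes; no source used here gives the counting rules or the build. The authors deposited, per the file headers, a normalized tag value (a signal, scaling not given) for each piRNABank piRNA, and a signed fold score against the wild-type mean with 10 added to each value, for piRNAs past a threshold. Folds recomputed from the deposited values agreed to within 5e-07. Low values lay on a common step per library (0.444 to 1.05) for 60.5% to 91.2% of values, within 0.05, so whole reads could not be recovered. A further 204 columns were not used.

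The members and lists were chosen with earlier results of these data known. Counts, medians and log2 ratios (pseudocount 10) were computed in Python 3.11.15 with pandas 2.3.3 and numpy 2.4.6, with no test. The sequence matching, the genome positions, the grouping by shared bases and the log2 ratio were checked on simulated data, and the counts were not. Group tables supplied values of members for other libraries. Replicate names follow the labels' numbers. The sequence was matched whole and exactly, on both strands, to GENCODE M21 transcripts (GRCm38) in place of a genome. Groups needed at least 20 shared bases, or 50 kb on the genome. Named piRNAs were those with 5 values listed in 1 direction for all 3 (up to 8 each way, by the smallest fold), the 4 with the highest wild-type mean, the 2 with the largest fold per library and direction, and the pairs sharing the first 20 bases; others named as examples of overlap, position or length, or of opposite directions, were chosen after their values were seen. Alternatives changed the length limit (32 nt), the fold (4), a minimum value (50), the pseudocount (1 or 50), the libraries and the joining distance (10 kb). For the named piRNAs the pseudocounts and left-out libraries were chosen as alternatives after seeing the data, as was the string in other piRNAs. The miRNA tables were not analysed here.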

Additional observations from a re-analysis of the deposited data

How the results depend on the processing

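Counts of listed piRNAs fell with any stricter rule, by construction. For Mtdh-/- 1, 2 and 3, those listed higher numbered 45, 61 and 27 at 32 nt or longer, 48, 69 and 0 past 4-fold, and, for Mtdh-/- 1 and 2, 119 and 187 with a value of at least 50. Those listed lower numbered 44, 65 and 28 at 32 nt or longer, 41, 53 and 34 past 4-fold, and 132, 162 and 89 with a value of at least 50. Listed for all 3 libraries, 1 higher and 14 lower remained at 32 nt or longer, and 0 higher and 20 lower past 4-fold. At 32 nt or longer, 2 piRNAs had all Mtdh-/- values above both wild types and 3 below, and ATGG stood in 85.7% of those listed lower for all 3.

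With 1 wild-type library left out, the counts listed higher ranged from 171 to 194, 266 to 279 and 26 to 105 for Mtdh-/- 1, 2 and 3, and those listed lower from 107 to 135, 159 to 239 and 5 to 159. The count for all 3 then ranged from 1 to 5 on the higher side and from 0 to 70 on the lower side, lowest without wild type 2. Only piRNAs already listed were rechecked, so these counts could only stay or fall. With 1 Mtdh-/- library left out, the count for the 2 others ranged from 9 to 31 higher and from 85 to 117 lower, highest without Mtdh-/- 3. Asking for fewer libraries could only keep or raise it. The same holds with any 1 of the 5 libraries left out for the piRNAs that did not overlap. The count with all Mtdh-/- values above the wild types ranged from 10 to 29 (without wild type 2), and below them from 16 to 74 (without wild type 1).

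The median log2 ratio over piRNAs with a value, which mixes those listed higher and lower, was -0.88, 0.50 and -1.05 for Mtdh-/- 1, 2 and 3. With 1 wild type left out it was 0.52 to 0.75 for Mtdh-/- 1, turning sign whichever was left out, and 0.57 to 0.59 for Mtdh-/- 2. For Mtdh-/- 3 it was then -1.58 to 0.37, turning sign only without wild type 2. With pseudocount 50 it was -0.30 and 0.24 for Mtdh-/- 1 and 2, and with pseudocount 1 it was 0.59 for Mtdh-/- 2. Over the piRNAs with 5 values it was -1.50 and -1.61 for Mtdh-/- 1 and 2, turning sign for Mtdh-/- 2. With pseudocount 50, 119 piRNAs were 2-fold or more higher and 88 lower in wild type 2 than in wild type 1.

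With 1 library left out, the log2 ratio of the mean of the Mtdh-/- libraries over wild type ranged from -4.34 to 0.075 for mmu_piR_022403, from -4.00 to 0.16 for mmu_piR_034173, from -3.74 to 0.32 for mmu_piR_029156 and from -3.69 to 1.06 for mmu_piR_021407, with the positive values without wild type 2. It ranged from -1.67 to 0.099 for mmu_piR_030002 and from -5.28 to 0.50 for mmu_piR_017744, with the positive values without wild type 1. Groups on the genome numbered 16 at 50 kb, at 10 kb and with single matches. No paired analysis was possible because the results come from no test. Depth is not given, so counting error is unknown, and members lacking a value in a library are not shown to be unchanged there.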
